A study of Mus musculus with 24 samples.

Results

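Homologous recombination and the Fanconi anaemia pathway repair DNA double-strand breaks and crosslinks between the strands of DNA, and 36 mouse genes of these pathways were followed here through 24 RNA libraries of neural stem and progenitor cells (NSPCs). The genes were chosen by symbol, and each was present among the 26411 genes of the count tables. All 36 passed the filter on low counts in every fit, so no member dropped out of a comparison, and the lowest count of a member in any library was 6.

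NSPCs were cultured from dorsal telencephalon dissected at E12.5 from mice on a C57BL/6 background. The embryos carried both wildtype alleles of *Kat6a*, which encodes a histone acetyltransferase (*Kat6a*+/+), 1 wildtype and 1 null allele (*Kat6a*+/–), or null alleles only (*Kat6a*–/–). The null allele lacks 5 exons and is carried by every cell of the embryo, so mutant cells carried it before dissection as well as in culture. Each library came from cells of an individual embryo, kept for 3 days either in growth factor medium (proliferating) or, with serum, on coated plates (differentiating). Each of the 3 genotypes had 4 libraries in each condition, which makes 6 groups of 4, and the embryos came from 5 litters in proliferating and 7 in differentiating cells. RNA of proliferating and of differentiating cells was extracted with different kits, so kit and condition cannot be told apart.

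In homologous recombination the MRE11-RAD50-NBN complex and CtIP start the resection of a broken end, and BRCA1, PALB2 and BRCA2 prepare the exposed strand for pairing with the intact sister chromatid, which is then copied. In the Fanconi pathway a core complex attaches ubiquitin to the FANCD2-FANCI pair where replication stalls at a crosslink. The repair that follows uses the same recombination proteins. Both pathways work mainly in the S and G2 phases of the cell cycle, when a sister chromatid is present, and many of their genes are transcribed most in dividing cells. Cortical progenitors divide fast, and mice lacking *Brca1*, *Brca2* or *Xrcc2* are known to lose neural cells in the developing brain.

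Total counts ranged from 7826660 to 40838203 per library. Whole-gene counts of *Kat6a* changed by −0.69 (SE 0.083, FDR 3.33e-05) on the log2 scale in differentiating *Kat6a*–/– vs. *Kat6a*+/+ NSPCs and were not called in proliferating cells at −0.13 (SE 0.056, FDR 0.1005). FDR is the p-value of limma's test adjusted by Benjamini-Hochberg over all genes tested, and a gene was called where it was under 0.05. Reads outside the deleted exons are counted too, so these values do not check the genotype. *Xist* levels above 100 CPM, a sign of female cells, were found, in each condition, in 1 *Kat6a*+/+, 3 *Kat6a*+/– and 3 *Kat6a*–/– libraries of 4. Sex and genotype were thus partly confounded, which touches *Fancb*, the X-linked member. Astrocyte, neuron and neural stem cell markers were detected in every group, whereas *Cx3cr1* and *Tyrobp* of the microglia were at 0 in every proliferating library.

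Promoter sequences, shown because the members moved together below, were available from RefSeq (GRCm38.p6) for 28 of the 36 members, with 31 promoters of 300 bases (250 before to 50 after the transcription start). The letters of an E2F site (TTTCCCGC, TTTCGCGC, TTTGCCGC or TTTGGCGC, on either strand) were found in 9 of the 31 promoters (29.03%) and in 2.26% of the 32851 promoters in the table. E2F factors are known regulators of S phase genes, and in the S phase list used below 33.3% of 39 promoters held these letters. A CCAAT box (CCAAT) was in 58.1% of members' promoters against 37.4% of all, and a cell-cycle homology element (TTTGAA or TTCGAA) in 12.9% against 19.2%. No member promoter had matches of different motifs that shared a base. Among members called lower in differentiating *Kat6a*–/– NSPCs 29.2% of 24 promoters held the E2F letters, and among members not called 28.6% of 7 did. The letters are a description of these windows and do not show that a factor was bound.

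The windows of 30 bases around each match read as follows, 5′ to 3′ on the strand of the gene, with the matched letters in capitals and positions on mm39 (GRCm39). *Rad51c* has a match in each of its 2 promoters.
Bard1 (chr1:71142322-71142351, minus strand): ccgccgctcagTTTCCCGCtcaggaagttt
Brca2 (chr5:150445907-150445936, plus strand): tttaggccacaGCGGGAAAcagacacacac
Chek2 (chr5:110987686-110987715, plus strand): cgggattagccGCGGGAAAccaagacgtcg
Fancg (chr4:43010335-43010364, minus strand): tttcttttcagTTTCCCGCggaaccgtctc
Msh6 (chr17:88282482-88282511, plus strand): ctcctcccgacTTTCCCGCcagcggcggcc
Rad51c (chr11:87295303-87295332, minus strand): gtttccagcgcTTTCGCGCctcttgctcta
Rad51c (chr11:87295767-87295796, minus strand): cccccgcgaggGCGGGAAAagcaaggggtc
Rmi1 (chr13:58550426-58550455, plus strand): ccccgagggagTTTGGCGCgattggaggag
Topbp1 (chr9:103182386-103182415, plus strand): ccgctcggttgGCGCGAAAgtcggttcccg
Counted from the RefSeq transcription start, the matches of *Bard1* and *Brca2* lay 209 and 168 bases before it, and that of *Msh6* began at base 16 of the transcript. These starts differ from the GENCODE starts of the same genes. *Msh6* and *Rmi1* are shown with the others because they carry the letters and were not called in either condition, while *Bard1*, *Brca2*, *Chek2*, *Fancg*, *Rad51c* and *Topbp1* were called lower in differentiating cells.

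Levels were compared between genes per kilobase of gene length (RPKM, from counts scaled over all 24 libraries). In proliferating *Kat6a*+/+ NSPCs *Topbp1*, which activates the ATR kinase, was the highest member at 70.4 ± 5.27 RPKM (SD, n = 4). It was followed by *Msh6*, a mismatch recognition gene, at 35.8 ± 2.40, and by *Nbn* at 21.4 ± 1.13. Their 4 libraries did not overlap between ranks 1, 2 and 3. From rank 4 on neighbours lay close together, and *Blm* at 15.9 ± 0.685, *Rad54l* at 15.8 ± 1.06 and *Chek2* at 15.6 ± 1.44 RPKM overlapped in their libraries. The lowest members were *Rad51c* (3.51 ± 0.398), *Rmi2* (3.32 ± 0.519) and *Rad54b* (2.78 ± 0.197), again with overlapping ranges.

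All 36 members were lower in differentiating than in proliferating *Kat6a*+/+ NSPCs in the fit of all 24 libraries (36.2% of the 13590 genes tested were called lower and 72.9% in either direction), with a median log2 fold change of −1.70 against 0.017 over all genes. In bulk RNA fewer cells of a type and less RNA per cell cannot be told apart, here or in any comparison that follows. The checkpoint kinase gene *Chek1* fell most, by 2.60 (SE 0.22, FDR 9.79e-10), then *Fanci* by 2.29 (SE 0.20) and the nuclease gene *Exo1* by 2.27 (SE 0.18). The smallest falls were those of *Mus81* (0.29, SE 0.087, FDR 0.00484), whose nuclease cuts branched DNA, and *Fancg* (0.52, SE 0.12). *Topbp1* remained the highest member per length in differentiating cells at 18.7 ± 2.83 RPKM, while *Brca1* stood at 3.72 ± 0.851 and *Rad54b*, the lowest, at 0.819 ± 0.199 RPKM.

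**Figure D1:**
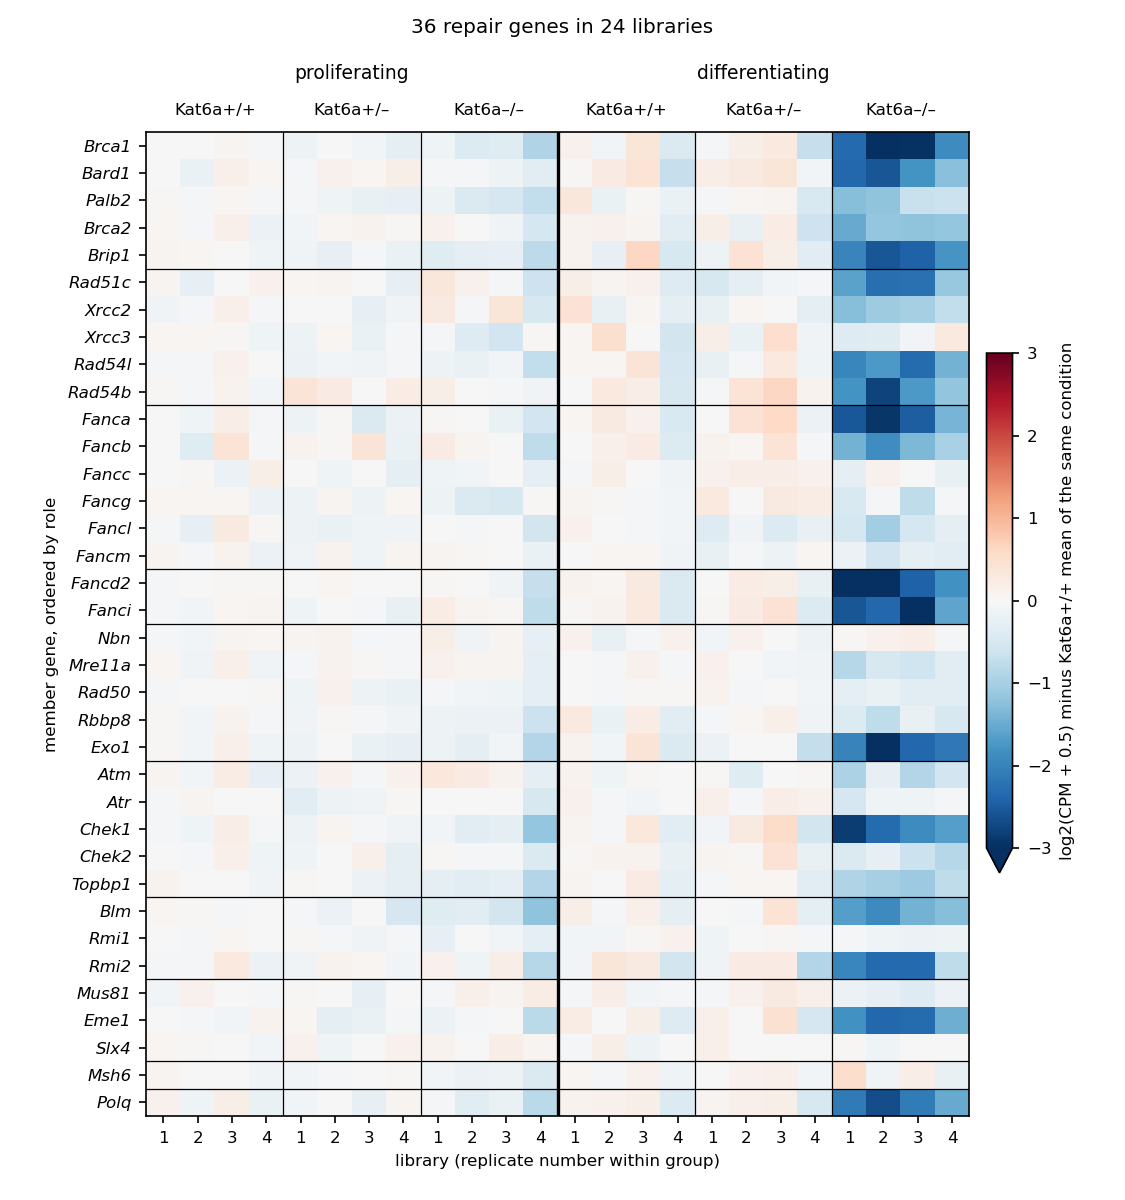
Colour gives log2(CPM + 0.5) of each member (rows, grouped by role) in each of the 24 libraries (columns, replicates 1 to 4 of each group), minus the Kat6a+/+ mean of the same condition; blue is lower, and values under −3 share the darkest blue. All 4 differentiating Kat6a–/– libraries are blue for most members, and among proliferating Kat6a–/– libraries replicate 4 is bluest.

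In proliferating *Kat6a*–/– vs. *Kat6a*+/+ NSPCs, 9 of the 36 members were called lower and none higher (13.8% of the 12276 genes tested were called lower and 16.2% higher, 30% in all), each by less than 1 log2 unit. The members' median log2 fold change was −0.18 against −0.0045 over all genes, and 31 of 36 estimates were negative. Among the BRCA1 and BRCA2 complexes 3 of 5 members fell, namely *Brca1*, *Palb2*, which joins BRCA1 to BRCA2, and *Brip1*, a helicase that binds BRCA1. Of the strand exchange genes (*Rad51c*, *Xrcc2*, *Xrcc3* and the motors *Rad54l* and *Rad54b*) 1 of 5 fell (*Rad54l*), of end resection and break sensing 2 of 5 (*Rbbp8*, which encodes CtIP, and *Exo1*), of checkpoint kinases and activator 2 of 5 (*Chek1* and *Topbp1*), and of the BLM dissolvasome 1 of 3 (*Blm*). None of the 6 core complex genes, of the FANCD2-FANCI pair or of the 3 structure-specific nuclease genes was called.

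The fall was largest for *Blm*, the helicase that dissolves joined recombination intermediates. Its levels in CPM (reads scaled to library size within a condition) in replicates 1 to 4 were 81.2, 79.8, 75.4 and 77.2 in *Kat6a*+/+, 75.6, 68.8, 77.2 and 55.0 in *Kat6a*+/– and 60.4, 62.7, 53.6 and 33.8 in *Kat6a*–/– libraries. All 4 *Kat6a*–/– values were below the lowest *Kat6a*+/+ value, as were 2 of 4 *Kat6a*+/– values, and the estimate was −0.59 (SE 0.14, FDR 0.00640). For *Brca1* the values were 87.8, 86.9, 93.2 and 83.9 CPM in *Kat6a*+/+, 78.7, 87.4, 83.7 and 72.2 in *Kat6a*+/– and 80.6, 65.7, 68.0 and 47.1 in *Kat6a*–/– libraries. The *Kat6a*–/– and *Kat6a*+/+ values did not overlap, and the log2 fold change was −0.45 (SE 0.11, FDR 0.00700). *Palb2* stood at 15.4, 14.6, 15.9 and 14.8 CPM in *Kat6a*+/+, 14.8, 13.7, 13.004 and 12.7 in *Kat6a*+/– and 13.6, 11.01, 10.6 and 8.94 in *Kat6a*–/– libraries, without overlap between *Kat6a*+/+ and *Kat6a*–/–, and changed by −0.47 (SE 0.12, FDR 0.00974). *Brip1* stood at 36.9, 36.3, 34.7 and 31.6 CPM in *Kat6a*+/+, 32.2, 29.2, 33.8 and 30.05 in *Kat6a*+/– and 26.8, 28.7, 29.2 and 20.04 in *Kat6a*–/– libraries, again without overlap, and changed by −0.42 (SE 0.11, FDR 0.0103). *Topbp1* stood at 384, 353, 363 and 333 CPM in *Kat6a*+/+, 367, 353, 315 and 297 in *Kat6a*+/– and 299, 280.4, 295 and 193 in *Kat6a*–/– libraries, also without overlap, and changed by −0.40 (SE 0.11, FDR 0.0146).

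*Kat6a*–/– replicate 4 stood apart from the other 3 *Kat6a*–/– libraries in proliferating cells. Its median difference from the *Kat6a*+/+ mean over the members was −0.53 on the log2 scale, whereas replicates 1, 2 and 3 were at −0.028, −0.066 and −0.081 and the *Kat6a*+/+ libraries between −0.055 and 0.080. The S phase list moved with it: its median was −0.85 in replicate 4 and −0.15, −0.28 and −0.16 in the others. The G2 and M phase list was at −0.78 in replicate 4 and at −0.12, −0.16 and −0.086 in the others. This library shared litter 5063 with *Kat6a*+/– replicate 4, and no proliferating *Kat6a*+/+ library came from that litter. *Kat6a*+/– replicate 4 was the lowest of its group for *Blm*, *Brca1*, *Palb2*, *Topbp1* and *Exo1* but not for *Brip1*, *Chek1* or *Rad54l*. The part of litter in the low values of *Kat6a*–/– replicate 4 was not tested. Astrocyte markers were higher in all 4 *Kat6a*–/– libraries (1463 to 2345 CPM summed, against 767 to 972 in *Kat6a*+/+), with 5 of 7 tested markers called higher. Of the neuron markers 3 of 7 tested were called lower and 1 higher, with *Tubb3* at −1.19 (SE 0.28, FDR 0.00694) and *Rbfox3* at −1.78 (SE 0.49, FDR 0.0156), while their summed level was 1057.6 to 1159 CPM in *Kat6a*–/– and 852 to 1092 CPM in *Kat6a*+/+. Of the neural stem cell markers 4 of 9 were lower and 1 higher, with *Emx2* at −1.35 (SE 0.21, FDR 0.000641) and *Prom1* at −1.08 (SE 0.29, FDR 0.0140), and they summed to 5319.9 to 7266 CPM in *Kat6a*–/– and 7200.3 to 7895 CPM in *Kat6a*+/+. The part of cell cycling or of cell types in the members' fall was not tested. Without *Kat6a*–/– replicate 4 the members' median was −0.055, and 7 members were called, 5 of which were among the 9. These 5 were *Brca1* (−0.32, FDR 0.0195), *Palb2* (−0.38, FDR 0.0426), *Brip1* (−0.32, FDR 0.0245), *Topbp1* (−0.29, FDR 0.0177) and *Blm* (−0.43, FDR 0.0140), and the added calls were *Xrcc3* (−0.37, FDR 0.0491) and *Fancg* (−0.39, FDR 0.0405). For this and other alternatives the share of all genes called is given only where stated. Elsewhere a count of members shows how calls changed and does not single out the members.

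The other 4 called members rested on *Kat6a*–/– replicate 4. *Chek1* values were 55.8, 53.0, 66.8 and 56.8 CPM in *Kat6a*+/+, 52.1, 61.6, 55.9 and 53.7 in *Kat6a*+/– and 54.2, 46.7, 48.1 and 25.6 in *Kat6a*–/– libraries. *Kat6a*–/– replicates 2 and 3 lay just below the *Kat6a*+/+ range and replicate 4 far below it, and the log2 fold change of −0.49 (SE 0.15, FDR 0.0310) became −0.23 (FDR 0.0912) without it. *Exo1* stood at 61.1, 56.4, 66.0 and 54.5 CPM in *Kat6a*+/+, 53.5, 58.5, 51.2 and 50.1 in *Kat6a*+/– and 53.4, 48.0, 55.7 and 32.3 in *Kat6a*–/– libraries, and its change of −0.36 (SE 0.13, FDR 0.0469) became −0.19 (FDR 0.145). *Rad54l*, a motor that helps strands pair, stood at 46.5, 46.0, 53.0 and 47.8 CPM in *Kat6a*+/+, 42.6, 45.3, 44.7 and 46.8 in *Kat6a*+/– and 43.4, 41.7, 45.4 and 28.7 in *Kat6a*–/– libraries. Its *Kat6a*–/– and *Kat6a*+/+ values did not overlap, but its change of −0.31 (SE 0.11, FDR 0.0487) became −0.15 (FDR 0.1802) without replicate 4. *Rbbp8* changed by −0.30 (SE 0.091, FDR 0.0235), and by −0.18 (FDR 0.0813) without it. Together 7 members had all 4 *Kat6a*–/– libraries below all 4 *Kat6a*+/+ libraries, where 14.9% of all genes tested did, and none had all above (15.9% of all genes).

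The call also depended on *Kat6a*+/+ libraries: 5 members were called without *Kat6a*+/+ replicate 1 and 5 without *Kat6a*+/+ replicate 3, all among the 9. Calls for *Blm*, *Brca1* and *Topbp1* held under all alternatives tried, while litter as a fixed term left 3 calls and edgeR's quasi-likelihood test 5. With limma-trend and library quality weights, which give the libraries unequal weight, the members' median was −0.066 and 9 members were called, 6 of them shared. The 27 members that were not called had log2 fold changes between −0.38 for *Polq*, the polymerase of an error-prone end joining route (FDR 0.0662), and 0.13 for *Mus81* (FDR 0.271).

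In differentiating *Kat6a*–/– vs. *Kat6a*+/+ NSPCs, 29 of the 36 members were called lower and none higher (27.7% of the 13339 genes tested were called lower, 26.7% higher and 54.4% in either direction), and the median log2 fold change was −1.16 against −0.016 over all genes. Of the 29, 14 fell by more than 2 log2 units, 6 by 1 to 2 and 9 by less than 1. The 4 *Kat6a*–/– libraries lay below all 4 *Kat6a*+/+ libraries for 27 members, where 14.7% of all genes tested did. Scaling by library totals moved the median of all genes to −0.17 and the members' median to −1.31, and 31 members were then called lower. The share of all genes called with that scaling is not given, so this count does not single out the members. The fitted values give *Kat6a*–/– replicate 3 69.0% of its group's weight through library quality weights and replicate 2 4.22%, so a fold change can differ from the ratio of mean CPM.

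**Figure D2:**
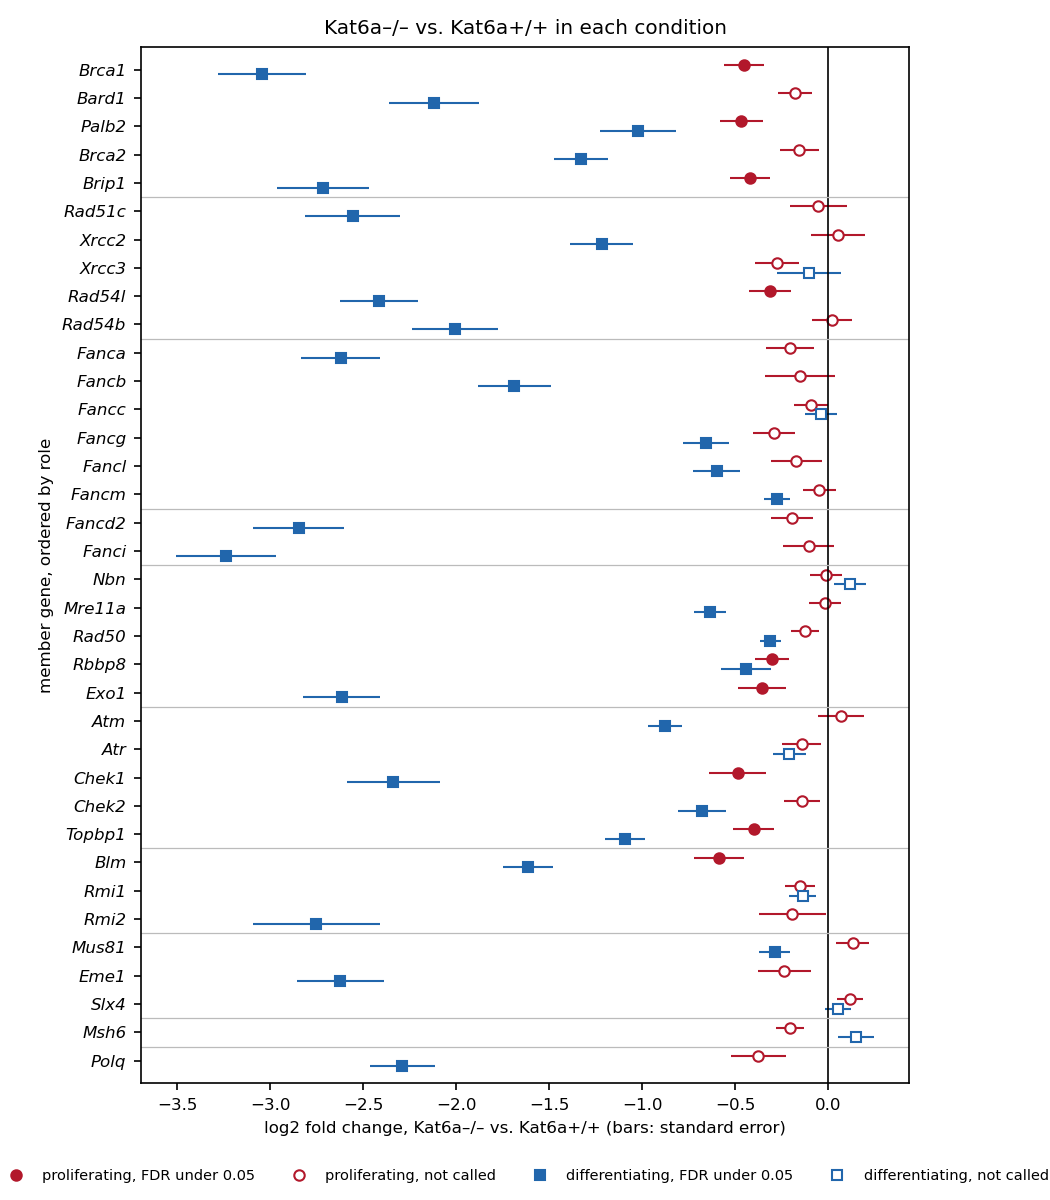
Fitted log2 fold change of Kat6a–/– vs. Kat6a+/+ NSPCs (x axis, bars are standard errors, 4 libraries a group) for each member (y axis) in proliferating (red circles) and differentiating cells (blue squares); filled symbols are called at FDR under 0.05. Filled red circles lie between −0.59 and −0.30 and filled blue squares between −3.24 and −0.28.

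Both genes of the Fanconi ID2 pair, the substrate that the core complex marks with ubiquitin, were among the members that fell most. *Fanci* (chromosome 7, 79041677 to 79100027 on mm39) stood at 12.49, 13.2, 15.0 and 8.96 CPM in *Kat6a*+/+, 12.4, 14.6, 16.5 and 9.09 in *Kat6a*+/– and 1.66, 1.99, 0.961 and 3.72 in *Kat6a*–/– libraries. The highest *Kat6a*–/– value was below every *Kat6a*+/+ and *Kat6a*+/– value, and the log2 fold change was −3.24 (SE 0.27, FDR 3.44e-06). *Fancd2* (chromosome 6, 113508412 to 113573982) stood at 17.7, 17.2, 19.8 and 12.04 CPM in *Kat6a*+/+, 16.3, 19.3, 18.6 and 14.03 in *Kat6a*+/– and 1.10, 1.10, 2.64 and 4.30 in *Kat6a*–/– libraries, again without overlap, and changed by −2.85 (SE 0.24, FDR 4.23e-06).

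All 5 genes of the BRCA1 and BRCA2 complexes fell. *Brca1* (chromosome 11, 101379577 to 101442781) stood at 26.4, 22.8, 31.3 and 17.8 CPM in *Kat6a*+/+, 23.6, 27.1, 29.8 and 14.8 in *Kat6a*+/– and 4.34, 1.73, 2.64 and 6.10 in *Kat6a*–/– libraries, and all 4 *Kat6a*–/– values were below *Kat6a*+/+ and *Kat6a*+/–. Its log2 fold change was −3.04 (SE 0.24, FDR 2.81e-06). *Brip1* stood at 10.4, 8.11, 15.1 and 6.79 CPM in *Kat6a*+/+, 8.60, 13.1, 11.03 and 7.55 in *Kat6a*+/– and 2.07, 1.20, 1.38 and 2.50 in *Kat6a*–/– libraries, with the same separation, and changed by −2.72 (SE 0.25, FDR 5.74e-06). *Bard1*, the partner of BRCA1 in its ubiquitin ligase, went from 10.7 ± 3.32 in *Kat6a*+/+ to 2.36 ± 1.21 CPM in *Kat6a*–/– (mean ± SD, n = 4) and changed by −2.12 (SE 0.24, FDR 2.32e-05). *Brca2*, which acts after end resection, went from 21.1 ± 2.95 to 8.50 ± 1.03 CPM and changed by −1.33 (SE 0.15, FDR 1.96e-05). *Palb2* fell least of these, from 5.10, 3.35, 4.04 and 3.37 in *Kat6a*+/+ to 1.31, 1.41, 2.28 and 2.31 CPM in *Kat6a*–/– libraries, with 3.82, 4.11, 4.13 and 2.74 in *Kat6a*+/–. Its groups did not overlap between *Kat6a*+/+ and *Kat6a*–/–, and its change was −1.02 (SE 0.21, FDR 0.00117).

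Of the same strand exchange genes 4 of 5 fell. *Rad51c* went from 4.44 ± 0.802 to 0.975 ± 0.572 CPM (−2.56, SE 0.26, FDR 1.06e-05) and *Xrcc2* from 12.1 ± 3.03 to 5.65 ± 0.9851 CPM (−1.22, SE 0.17, FDR 9.34e-05). The motor gene *Rad54l* stood at 11.7, 11.6, 14.8 and 7.66 CPM in *Kat6a*+/+, 9.55, 10.8, 13.7 and 10.2 in *Kat6a*+/– and 2.48, 3.04, 1.86 and 3.85 in *Kat6a*–/– libraries and changed by −2.42 (SE 0.21, FDR 4.39e-06). Its relative *Rad54b* stood at 5.70, 7.19, 6.69 and 3.96 CPM in *Kat6a*+/+, 5.49, 7.76, 9.04 and 6.21 in *Kat6a*+/– and 1.31, 0.419, 1.38 and 2.25 in *Kat6a*–/– libraries and changed by −2.01 (SE 0.23, FDR 2.42e-05). Neither had a *Kat6a*–/– library inside the *Kat6a*+/+ range. *Xrcc3* was the exception: it stood at 14.4, 19.7, 13.9 and 9.33 CPM in *Kat6a*+/+, 15.6, 12.1, 20.01 and 12.8 in *Kat6a*+/– and 10.5, 10.7, 13.1 and 17.1 in *Kat6a*–/– libraries, the groups overlapped, and the estimate was −0.10 (SE 0.17, FDR 0.636).

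Of the 6 Fanconi core complex genes 5 were called, but over a wide range of sizes. *Fanca* stood at 13.4, 15.6, 14.1 and 9.21 CPM in *Kat6a*+/+, 12.95, 17.5, 19.6 and 11.3 in *Kat6a*+/– and 1.79, 1.26, 1.92 and 4.56 in *Kat6a*–/– libraries and changed by −2.62 (SE 0.21, FDR 3.07e-06), with no overlap of *Kat6a*–/– with the other genotypes. *Fancb*, on the X chromosome, went from 3.29 ± 0.683 to 0.948 ± 0.364 CPM (−1.69, SE 0.20, FDR 2.65e-05). The *Kat6a*+/– group was at 3.61 ± 0.6002 CPM, and the part of sex in this difference was not tested. The other core genes had smaller estimates. *Fancg* changed by −0.66 (SE 0.13, FDR 0.000814), *Fancl*, the ubiquitin ligase subunit, by −0.60 (SE 0.13, FDR 0.00154), and *Fancm*, the DNA motor that anchors the complex, by −0.28 (SE 0.071, FDR 0.00584). *Fancc* stood at 13.1, 15.5, 13.8 and 12.8 CPM in *Kat6a*+/+, 15.1, 15.8, 15.8 and 15.0 in *Kat6a*+/– and 11.2, 15.0, 13.8 and 11.8 in *Kat6a*–/– libraries, the *Kat6a*–/– and *Kat6a*+/+ ranges overlapped, and the estimate was −0.038 (SE 0.086, FDR 0.728).

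End resection and break sensing split by gene. *Exo1*, the long-range resection nuclease, stood at 13.5, 11.8, 16.5 and 9.12 CPM in *Kat6a*+/+, 10.98, 12.7, 12.3 and 7.42 in *Kat6a*+/– and 2.76, 0.8902, 2.04 and 2.44 in *Kat6a*–/– libraries, without overlap between *Kat6a*–/– and the other genotypes, and changed by −2.62 (SE 0.21, FDR 2.78e-06). The MRE11-RAD50-NBN complex had smaller estimates: *Mre11a* changed by −0.64 (SE 0.086, FDR 7.61e-05) and *Rad50* by −0.31 (SE 0.055, FDR 0.000507), while *Nbn* stood at 26.7, 20.9, 23.8 and 27.0 CPM in *Kat6a*+/+, 23.2, 26.6, 24.4 and 21.8 in *Kat6a*+/– and 25.0, 26.9, 28.4 and 24.1 in *Kat6a*–/– libraries and was not called (0.12, SE 0.085, FDR 0.260). The *Kat6a*–/– values of *Nbn* lay between 24.1 and 28.4 CPM, across the upper part of the *Kat6a*+/+ range. *Rbbp8* changed by −0.44 (SE 0.13, FDR 0.0136).

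Among checkpoint genes the effector kinase gene *Chek1* stood at 10.1, 9.20, 11.9 and 7.54 CPM in *Kat6a*+/+, 9.01, 11.6, 14.2 and 6.35 in *Kat6a*+/– and 0.897, 1.52, 2.22 and 2.69 in *Kat6a*–/– libraries and changed by −2.34 (SE 0.25, FDR 1.59e-05). *Topbp1* stood at 99.4, 93.6, 111 and 76.4 CPM in *Kat6a*+/+, 91.7, 98.6, 98.5 and 75.3 in *Kat6a*+/– and 49.9, 47.3, 44.4 and 55.2 in *Kat6a*–/– libraries and changed by −1.09 (SE 0.11, FDR 8.00e-06). Neither gene had a *Kat6a*–/– library inside the *Kat6a*+/+ range. The sensor kinase genes had smaller estimates: *Atm* changed by −0.88 (SE 0.089, FDR 1.16e-05) and *Atr* was not called (−0.21, SE 0.087, FDR 0.0579). *Chek2*, the kinase downstream of ATM, changed by −0.68 (SE 0.13, FDR 0.000779).

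In the BLM dissolvasome *Blm* stood at 19.1, 16.1, 18.8 and 13.996 CPM in *Kat6a*+/+, 16.7, 16.1, 22.4 and 13.6 in *Kat6a*+/– and 5.03, 4.14, 5.95 and 6.61 in *Kat6a*–/– libraries and changed by −1.62 (SE 0.13, FDR 3.27e-06). *Rmi2*, a small subunit that stabilises the complex, stood at 3.62, 5.14, 4.72 and 2.46 CPM in *Kat6a*+/+, 3.52, 4.64, 4.69 and 1.87 in *Kat6a*+/– and 0.621, 0.367, 0.361 and 2.05 in *Kat6a*–/– libraries and changed by −2.75 (SE 0.34, FDR 4.22e-05). *Kat6a*–/– replicate 4 was the highest of its group for both genes and still below every *Kat6a*+/+ library. *Rmi1*, the remaining subunit listed, was at 19.3 ± 1.41 CPM in *Kat6a*+/+ and 17.7 ± 0.758 in *Kat6a*–/– NSPCs and was not called (−0.14, SE 0.074, FDR 0.132). Of the structure-specific nucleases *Eme1* stood at 6.90, 5.79, 6.69 and 4.33 CPM in *Kat6a*+/+, 6.57, 5.83, 8.21 and 3.94 in *Kat6a*+/– and 1.31, 0.733, 0.781 and 1.80 in *Kat6a*–/– libraries and changed by −2.62 (SE 0.23, FDR 4.87e-06), without overlap, whereas its catalytic partner *Mus81* changed by −0.29 (SE 0.083, FDR 0.0106) and the scaffold *Slx4* was not called (0.051, SE 0.069, FDR 0.554). *Polq* went from 11.8 ± 2.13 to 2.44 ± 0.954 CPM (−2.29, SE 0.17, FDR 2.49e-06).

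*Msh6* had the only positive estimate besides *Nbn* and *Slx4*. It stood at 58.7, 54.3, 62.0 and 51.6 CPM in *Kat6a*+/+, 55.9, 61.5, 62.7 and 53.5 in *Kat6a*+/– and 82.1, 52.7, 64.5 and 48.6 in *Kat6a*–/– libraries, with replicates 1 and 3 of *Kat6a*–/– above every *Kat6a*+/+ library and replicate 4 below, and its estimate was 0.15 (SE 0.10, FDR 0.204). Without *Kat6a*–/– replicates 2 and 4 it was called higher (FDR 0.0267).

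Of the 29 calls 20 held under all alternatives tried. The 9 others, *Palb2*, *Fancg*, *Fancl*, *Fancm*, *Rad50*, *Rbbp8*, *Atm*, *Chek2* and *Mus81*, had estimates from −1.02 to −0.28, and each lost its call without *Kat6a*–/– replicate 1 or replicate 3. With 1 of these libraries left out 21 members were called. *Fancg* then changed by −0.40 without replicate 1 and −0.19 without replicate 3, *Atm* by −0.58 and −0.53, *Chek2* by −0.50 and −0.40, and *Mus81* by −0.27 and −0.17.

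**Figure D3:**
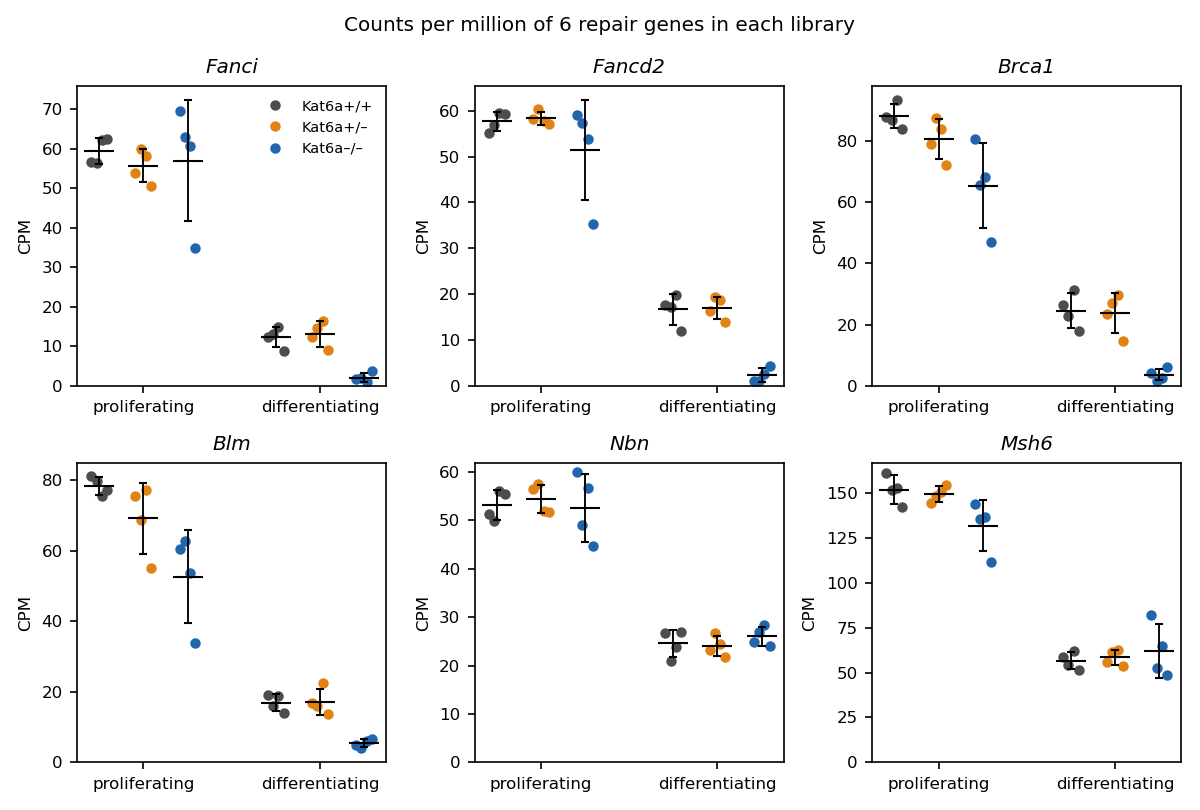
CPM (y axes, from 0) of 6 members in every library (points), grouped by condition and genotype, with the mean and SD of each group of 4 (black). Differentiating Kat6a–/– values of Fanci, Fancd2, Brca1 and Blm lie below all others of that condition, while those of Nbn and Msh6 overlap Kat6a+/+.

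The markers of other cell types and of the cell cycle gave a further view of the same libraries. Of the mesenchymal and meningeal markers 4 of 8 were tested in differentiating cells and all 4 were higher in *Kat6a*–/–. Their summed level was 278, 42.8, 259 and 178 CPM in *Kat6a*–/– replicates 1 to 4 and 32.6 to 65.7 CPM in *Kat6a*+/+. The members' median in the same replicates 1 to 4 was −1.29, −1.11, −1.03 and −0.77. Without replicates 1 and 3, 24 members were called lower, where 14% of the 13574 genes tested were called in either direction (the share called lower is not given). That fit kept replicate 4, whose marker sum was above the *Kat6a*+/+ range. Astrocyte markers summed to 6969 CPM in *Kat6a*–/– replicate 2 and to 1899 to 3556 CPM in the others (2262 to 3223 in *Kat6a*+/+). Neuron markers moved in opposite directions, with 4 of 7 tested called lower and 1 higher. *Elavl4* changed by −3.98 (SE 0.38, FDR 8.56e-06) and *Dcx* by −4.51 (SE 0.49, FDR 1.83e-05). *Stmn2*, the marker called higher, had 0 to 4 counts in each *Kat6a*+/+ library and 15 to 61 in each *Kat6a*–/– library. The summed neuron level (467 to 769 CPM in *Kat6a*–/– and 541 to 731 CPM in *Kat6a*+/+) overlapped between the genotypes. Of the oligodendrocyte lineage markers 4 of 6 tested were lower and 1 higher, and they summed to 689 to 1223 CPM in *Kat6a*–/– and 1193 to 1414 CPM in *Kat6a*+/+. Of the neural stem cell markers 4 of 9 were lower and 3 higher, with sums of 8199 to 11655 CPM in *Kat6a*–/– and 5953 to 7553 CPM in *Kat6a*+/+. Of the endothelial markers *Cldn5* was at 0 in every differentiating library, and the list summed to 9.59 to 36.6 CPM in *Kat6a*–/– and 46.0 to 72.4 CPM in *Kat6a*+/+. The part of any of these cell types, mesenchymal cells included, in the members' fall was not tested.

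Cell cycle genes fell in the same comparison. Of 42 S phase genes 41 were called lower with a median log2 fold change of −1.45, and of 28 G2 and M phase genes all 28 with a median of −2.93. *Mki67*, expressed in dividing cells, changed by −3.50 (SE 0.24, FDR 2.49e-06), and *Pcna*, the sliding clamp of replication, by −1.16 (SE 0.12, FDR 1.69e-05). The members' median of −1.16 was less negative than that of either list, and the part of cell cycling in the members' fall was not tested. Summed over genes, members stood at 0.382 to 0.458 of the S phase sum in differentiating *Kat6a*+/+ libraries and at 0.624 to 0.743 in *Kat6a*–/– libraries, so the ratio was higher in all 4 *Kat6a*–/– libraries. In proliferating cells the ratio was 0.343 to 0.369 in *Kat6a*+/+ and 0.366 to 0.447 in *Kat6a*–/– libraries. It was thus also higher in differentiating than in proliferating *Kat6a*+/+ libraries. The sum is weighted to abundant members such as *Topbp1* and *Msh6*.

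**Figure D4:**
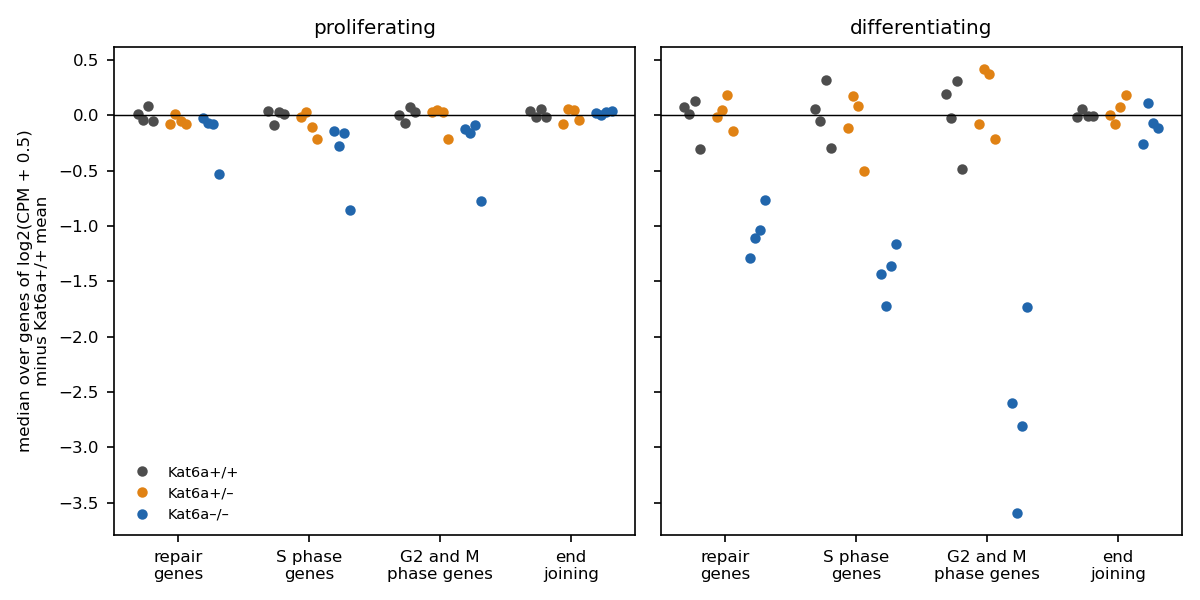
Each point is 1 library: the median over the genes of a list of log2(CPM + 0.5) minus the Kat6a+/+ mean of the same condition (y axis), for the 36 repair genes, 42 S phase genes, 28 G2 and M phase genes and 10 end joining genes (x axis), coloured by genotype. Differentiating Kat6a–/– libraries are low for the first 3 lists, and in proliferating cells Kat6a–/– replicate 4 (the lowest point) is low for the same lists, at −0.53 for the repair genes.

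Other repair pathways were set beside the members in differentiating *Kat6a*–/– vs. *Kat6a*+/+ NSPCs, where 27.7% of all genes tested were called lower and 26.7% higher. Of 52 other homologous recombination and Fanconi genes 32 were called lower and 1 higher (median −0.46), with *Hrob*, which brings a helicase to recombination sites, at −3.18 (SE 0.29, FDR 6.11e-06), and *Rad51ap1* at −2.75 (SE 0.27, FDR 1.03e-05) the largest. Of 10 checkpoint partners tested 8 were lower (median −0.60), led by *Clspn* at −2.27 (SE 0.19, FDR 3.72e-06), the adaptor that lets ATR reach CHK1. Of 16 base excision genes tested 12 were lower (median −0.50), with the glycosylase *Neil3* at −3.29 (SE 0.29, FDR 4.56e-06). Of the 6 mismatch repair partners 5 were lower (median −0.36).

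End joining and nucleotide excision genes had medians nearer to 0. Of 10 non-homologous end joining genes 4 were lower and 1 higher (median −0.086), the largest being *Dclre1c*, which encodes the nuclease Artemis, at −0.55 (SE 0.16, FDR 0.0101). Of 15 nucleotide excision genes 4 were lower and 2 higher (median −0.15), with the nuclease gene *Ercc5* at 0.91 (SE 0.11, FDR 3.65e-05). *Trp53bp1*, whose product favours end joining over resection, changed by −0.49 (SE 0.060, FDR 3.76e-05). In proliferating cells the end joining genes had a median of 0.029, with 1 of 10 higher (*Lig4*, which seals the break, at 0.38, SE 0.12, FDR 0.0307), and the other recombination genes a median of −0.13, with 7 of 52 lower and 2 higher. Of all genes tested in proliferating cells 13.8% were called lower and 16.2% higher.

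The effect of the *Kat6a*–/– genotype was set against condition by an interaction term in the fit of all 24 libraries. A negative value means a larger fall in differentiating than in proliferating cells. The fit had no term for the 6 embryos that were sampled in both conditions. For 20 of 36 members the interaction was called negative and for none positive (7.58% of the 13590 genes tested were called negative and 6.36% positive, 13.9% in all), with a median of −0.85 against −0.00071 over all genes. *Fancd2* had the largest at −2.83 (SE 0.40, FDR 0.000179). In proliferating libraries it stood at 55.2, 56.8, 59.6 and 59.2 CPM in *Kat6a*+/+, 58.2, 60.4, 57.7 and 57.1 in *Kat6a*+/– and 59.1, 57.3, 53.9 and 35.4 in *Kat6a*–/–, where 2 of 4 *Kat6a*–/– libraries were below the *Kat6a*+/+ range. *Fanci* followed at −2.54 (SE 0.46, FDR 0.00104), with 56.6, 56.4, 62.2 and 62.4 CPM in *Kat6a*+/+, 53.9, 60.0, 58.1 and 50.7 in *Kat6a*+/– and 69.7, 63.1, 60.7 and 34.8 in *Kat6a*–/– proliferating libraries. Its *Kat6a*–/– values straddled the *Kat6a*+/+ range. *Brca1*, already lower in proliferating cells, had an interaction of −2.39 (SE 0.42, FDR 0.000811).

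Of the members called lower in differentiating cells 9 had no called interaction: *Chek2*, *Fancg*, *Fancl*, *Fancm*, *Mus81*, *Palb2*, *Rad50*, *Rbbp8* and *Topbp1*. *Topbp1* had −0.47 (SE 0.19, FDR 0.103) and *Palb2* −0.59 (SE 0.27, FDR 0.142). Calls for *Mre11a*, *Atm* and *Blm* were lost under an alternative, all 3 without proliferating *Kat6a*–/– replicate 2, when 17 members were called. The 3 largest positive estimates were those of *Msh6* (0.34, SE 0.16, FDR 0.163), *Xrcc3* (0.19, SE 0.28, FDR 0.705) and *Nbn* (0.14, SE 0.14, FDR 0.544), none called. *Msh6* stood at 161, 151, 153 and 142 CPM in *Kat6a*+/+, 144, 148, 150.2 and 154 in *Kat6a*+/– and 144, 135, 136 and 112 in *Kat6a*–/– proliferating libraries, where 3 of 4 *Kat6a*–/– libraries were below the *Kat6a*+/+ range. *Xrcc3* stood at 24.5, 24.6, 24.2 and 21.5 CPM in *Kat6a*+/+, 21.3, 24.8, 20.6 and 22.6 in *Kat6a*+/– and 23.0, 17.8, 15.7 and 24.05 in *Kat6a*–/– proliferating libraries, where *Kat6a*–/– replicates 2 and 3 were lowest. *Nbn* stood at 51.3, 49.9, 56.0 and 55.5 CPM in *Kat6a*+/+, 56.4, 57.4, 52.0 and 51.7 in *Kat6a*+/– and 60.0, 49.0, 56.6 and 44.6 in *Kat6a*–/– proliferating libraries, with overlap between all genotypes.

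In *Kat6a*+/– vs. *Kat6a*+/+ NSPCs no member was called in either condition (limma: 0 of 12276 and 0 of 13339 genes tested, a background of 0%). At an unadjusted p under 0.05 there was 1 member in proliferating cells (7.43% of all genes) and 1 in differentiating cells (14.4% of all genes). DESeq2 called 28 and 8 of all genes and no member, and edgeR called none. Estimates for members ranged from −0.20 to 0.21 in proliferating cells (median SE 0.10) and from −0.41 to 0.22 in differentiating cells (median SE 0.17).

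The smallest p-values belonged to the following members. *Rad54b* in proliferating cells stood at 20.4, 19.1, 21.5 and 18.9 CPM in *Kat6a*+/+, 26.3, 23.7, 19.9 and 23.5 in *Kat6a*+/– and 22.6, 19.8, 19.6 and 18.5 in *Kat6a*–/– libraries, with overlap (no member separated *Kat6a*+/– from *Kat6a*+/+ in these cells, against 2.31% of genes below and 2.26% above), and its estimate in *Kat6a*+/– was 0.21 (SE 0.095, FDR 0.663). *Fanca* stood at 41.3, 37.9, 48.1 and 39.8 CPM in *Kat6a*+/+, 37.7, 42.8, 30.5 and 36.7 in *Kat6a*+/– and 42.7, 41.6, 35.99 and 28.0 in *Kat6a*–/– libraries (*Kat6a*+/– estimate −0.20, SE 0.12, FDR 0.745), and *Palb2* had −0.17 (SE 0.10, FDR 0.7499). In differentiating cells *Fancl* stood at 7.01, 6.38, 6.26 and 5.998 CPM in *Kat6a*+/+, 4.78, 5.90, 4.69 and 5.41 in *Kat6a*+/– and 4.28, 2.83, 4.27 and 5.13 in *Kat6a*–/– libraries. All 4 *Kat6a*+/– libraries were below all 4 *Kat6a*+/+ libraries, as for 1.45% of genes tested, while no member had all 4 above (1.4% of genes tested), and the estimate was −0.38 (SE 0.13, FDR 0.262). *Fancm* stood at 28.8, 30.5, 30.05 and 27.0 CPM in *Kat6a*+/+, 24.8, 27.8, 26.1 and 30.4 in *Kat6a*+/– and 25.5, 19.3, 24.1 and 23.4 in *Kat6a*–/– libraries (−0.14, SE 0.076, FDR 0.396), and *Fancc* had an estimate of 0.18 (SE 0.091, FDR 0.387). *Fancc* and *Fancm* groups overlapped. In proliferating libraries *Fancl* stood at 13.2, 11.4, 16.6 and 14.003 CPM in *Kat6a*+/+, 12.2, 11.9, 12.51 and 12.6 in *Kat6a*+/– and 13.5, 13.2, 13.5 and 9.25 in *Kat6a*–/–.

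Other members with large changes in differentiating cells were not called in proliferating cells. *Eme1* stood at 25.4, 24.1, 23.8 and 27.1 CPM in *Kat6a*+/+, 26.2, 20.6, 21.8 and 23.9 in *Kat6a*+/– and 22.1, 23.99, 25.4 and 14.1 in *Kat6a*–/– proliferating libraries, and its estimate was −0.24 (SE 0.14, FDR 0.228). *Rmi2* stood at 11.7, 11.8, 15.1 and 10.8 CPM in *Kat6a*+/+, 11.4, 13.3, 12.8 and 11.6 in *Kat6a*+/– and 13.4, 11.1, 14.2 and 6.58 in *Kat6a*–/– proliferating libraries, and its estimate was −0.19 (SE 0.18, FDR 0.430). In both the lowest value was that of *Kat6a*–/– replicate 4.

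For *Fancm* and *Fancc* the proliferating ranges of the genotypes overlapped. *Fancm* stood at 50.9, 46.9, 51.8 and 42.4 CPM in *Kat6a*+/+, 44.7, 51.3, 43.8 and 50.5 in *Kat6a*+/– and 50.5, 49.0, 48.1 and 41.3 in *Kat6a*–/– libraries. *Fancc* stood at 25.7, 26.6, 23.2 and 29.4 CPM in *Kat6a*+/+, 25.8, 23.9, 26.4 and 21.3 in *Kat6a*+/– and 23.9, 24.8, 26.0 and 21.4 in *Kat6a*–/– libraries.

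*Kat6a*–/– and *Kat6a*+/– NSPCs were also compared. These comparisons share the *Kat6a*–/– libraries with those above. In differentiating cells 27 members were called lower and none higher (18.5% of genes tested were called lower, 19.1% higher and 37.5% in either direction), among them *Fanci* (−3.23, SE 0.32, FDR 3.92e-05) and *Brca1* (−2.87, SE 0.28, FDR 3.92e-05). *Atr*, not called against *Kat6a*+/+, was called here (−0.32, SE 0.10, FDR 0.0291). Without *Kat6a*–/– replicate 1 17 members were called and without *Kat6a*–/– replicate 3 15. With litter as a fixed term 14 were called. In proliferating cells *Brca1* (−0.33, SE 0.10, FDR 0.0471) and *Blm* (−0.43, SE 0.13, FDR 0.0448) were called lower (6.3% of genes tested were called lower and 8.47% higher, 14.8% in all) and none higher. edgeR and DESeq2 called none of the members here. None was called without any 1 of the 4 *Kat6a*+/+ libraries, without *Kat6a*+/– replicate 1 or 2 or without *Kat6a*–/– replicate 4, and 1 was called without *Kat6a*+/– replicate 3 or 4 or *Kat6a*–/– replicate 2.

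In 6 embryos, by their labels, both conditions were sampled. The labels of 1 more pair of *Kat6a*+/+ libraries (replicate 2 in each condition) differed by swapped digits in the litter number, so these may also come from 1 embryo, and they were treated here as different embryos and litters. The members' median log2 change from proliferating to differentiating (all 24 libraries scaled together) was −1.57 and −1.51 in the 2 *Kat6a*+/+ embryos, −1.39 in the *Kat6a*+/– embryo, and −2.52, −2.49 and −1.72 in the 3 *Kat6a*–/– embryos. All 36 members were lower after differentiation in each of the 6. The *Kat6a*–/– embryo with the smallest change was the source of replicate 4 in both conditions, whose members were the lowest of the *Kat6a*–/– libraries in proliferating cells (−0.53) and the highest in differentiating cells (−0.77).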

How the data were processed

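RNA of 24 NSPC cultures, each from 1 embryo, was sequenced as bulk libraries. The authors deposited raw read counts per gene, 1 table per library, made from reads aligned to mm39 with Rsubread and counted with featureCounts on a RefSeq annotation. Software versions and the strand setting are not given in the sources used here, so reads of overlapping antisense genes may be counted too. The gene lengths deposited with the counts were used for RPKM. Total counts of 7826660 to 40838203 per library set the precision of a value.

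Groups were taken from the sample labels. The tables hold 26411 genes, of which 21030 were protein-coding. Genes kept by the low-count filter of edgeR (version 4.0.16), without *Xist* and Y-linked genes, were tested with limma (version 3.58.1, R 4.3.3). Proliferating libraries were fitted by voom with litter as a random block (correlation 0.287) and differentiating libraries by limma-trend (prior count 2) with library quality weights. The change with condition and the interaction were fitted by voom over all 24 libraries, also with litter as a random block (correlation 0.0036). That fit had no term for the 6 embryos sampled in both conditions. FDR is the Benjamini-Hochberg value over all genes tested, with calls at 0.05. Scaling used TMM factors. Alternatives were edgeR's quasi-likelihood test, DESeq2 (version 1.42.0), other scalings and filters, other blocks and weights, and leaving out libraries. Those that left out pairs of libraries or a litter were chosen after seeing the data. The fits were run on counts simulated without a litter effect, and there the proliferating and 24-library fits had no litter block. The fits with that block were therefore not tested on simulated data. Replicates of a group were compared by chi-square over genes, and the closest pair still differed (5.00 per degree of freedom), so none was counted as 1 sample.

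The members and gene lists were chosen with earlier results of these data known. Values per library are given for the 8 called members with the largest change in each condition, the 3 with the smallest p in each heterozygous comparison, and the 3 largest interactions in each direction. Outside the members, at most the 2 largest called genes of a list are named, besides *Mki67*, *Kat6a*, *Trp53bp1* and *Pcna*. *Lig4* and the cell type markers are named besides, the markers after their values were seen. Gene positions are those of GENCODE vM39 on mm39. Promoters were taken from RefSeq (GRCm38.p6). Each printed window was placed on mm39 through its whole promoter of 300 bases, which matched 1 site in the region of the gene. The rest of the genome was not searched.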

Additional observations from a re-analysis of the deposited data

Results flagged for a closer look

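For 20 of the 36 repair genes the *Kat6a*–/– effect differed between conditions by the interaction term (limma, FDR under 0.05). Of the 13590 genes tested 7.58% were called negative, 6.36% positive and 13.9% in all. Of the members called lower in differentiating cells 9 had no called interaction. The largest estimates were −2.83 for *Fancd2*, −2.54 for *Fanci* and −2.39 for *Brca1*, each with a larger fall in differentiating than in proliferating cells.

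Of 138 groups of 4 libraries examined, 4 held a library far from the other 3, where chance gives about 1 in 20. *Kat6a*–/– replicate 4 was the lowest of its group in proliferating cells for *Fancl* at 9.25 CPM and for the summed G2 and M phase genes at 3417 CPM. In differentiating cells replicate 4, from the same embryo, was the highest *Kat6a*–/– library for *Rmi2* at 2.05 CPM. *Kat6a*+/+ replicate 4 was the lowest of the proliferating *Kat6a*+/+ libraries for *Xrcc3* at 21.5 CPM.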

How the results depend on the processing

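In proliferating *Kat6a*–/– vs. *Kat6a*+/+ NSPCs 9 members were called, against 5 with edgeR, 3 with litter as a fixed term, and 5 to 10 with 1 library left out (5 without *Kat6a*+/+ replicate 1 or 3). In proliferating *Kat6a*–/– vs. *Kat6a*+/– NSPCs 2 were called, against 0 without a low-count filter, with edgeR, with DESeq2 or without the litter block, and 0 to 3 with 1 library left out. In differentiating *Kat6a*–/– vs. *Kat6a*+/– NSPCs 27 were called, against 14 with litter as a fixed term, 16 without *Kat6a*–/– replicates 1 and 3, and 15 to 28 with 1 library left out (17 without *Kat6a*–/– replicate 1 and 15 without replicate 3). The cause of these changes was not tested. The share of all genes called is not given for the alternatives in this section, so these counts do not single out the repair genes. In differentiating *Kat6a*–/– vs. *Kat6a*+/+ NSPCs the count stayed between 21 and 32 in the alternatives run, and for the interaction between 17 and 24. The interaction estimate changed sign for *Nbn* with library totals (−0.013, FDR 0.959) and for *Xrcc3* with 1 library left out (−0.060 to 0.30, negative without differentiating *Kat6a*+/+ replicate 4), and neither was called in any case. Replicate numbers were not used as pairs in the main fits, and 7 of 36 pairings had a correlation over 0.1 (range −0.47 to 0.48). Same-number libraries that share an embryo label across conditions had correlations of only −0.14 (*Kat6a*+/+ replicate 1) to 0.14 (*Kat6a*+/+ replicate 3). The correlation therefore cannot show whether numbers pair samples, and the embryo labels were used to find embryos sampled in both conditions. The main fit of all 24 libraries had litter as a random block (correlation 0.0036) and no term for embryo. Embryo as a random block was 1 of the alternatives. With the replicate block the *Kat6a*–/– vs. *Kat6a*+/+ comparison called 7 members in proliferating and 29 in differentiating NSPCs, and the interaction 21. Litter and genotype were partly confounded, with 5 and 7 litters for 12 libraries each, and RNA kit and condition cannot be told apart. The lowest count of a member was 6 in a library, so counting error limits the values of low members in differentiating *Kat6a*–/– NSPCs.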
